A study of Saccharomyces cerevisiae with 6 samples.

Results

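The pentose phosphate pathway of *S. cerevisiae* is covered here by 10 of the 6687 features counted by mRNA-Seq. They were picked by gene name, with earlier results of these data known. *ZWF1*, *SOL3*, *SOL4*, *GND1* and *GND2* belong to the oxidative branch, and *RKI1*, *RPE1*, *TAL1*, *TKL1* and *TKL2* to the non-oxidative branch. BY4741 cells carried either empty pCM190 (control) or pCM190-*PPZ1*, in which a doxycycline-repressed promoter drives *PPZ1*, the gene of a protein phosphatase that is toxic when overexpressed. Both strains were kept with 100 µg/ml doxycycline in synthetic medium lacking uracil, grown without doxycycline for 3.5 h, and moved for 1 h to fresh medium, with glucose at 2% or 0.25% or galactose at 2%. Each of the 6 conditions has 1 library, and the 3 libraries of a strain are described as drawn from a single culture, so no difference between conditions has a replicate check. A difference between strains cannot be told apart from a difference between these cultures.

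The pathway branches off glycolysis at glucose 6-phosphate. Its oxidative branch turns this sugar into ribulose 5-phosphate and reduces NADP+ to NADPH at the steps catalysed by glucose-6-phosphate dehydrogenase (*ZWF1*) and 6-phosphogluconate dehydrogenase (*GND1*, *GND2*), with a lactonase (*SOL3*, *SOL4*) between them. The non-oxidative branch interconverts pentose phosphates with glycolytic intermediates through an isomerase (*RKI1*), an epimerase (*RPE1*), transaldolase (*TAL1*) and transketolase (*TKL1*, *TKL2*). Yeast is known to draw on the pathway for NADPH in biosynthesis and peroxide defence and for ribose in nucleotides. Galactose enters at glucose 6-phosphate through the Leloir pathway, so it can feed the same branch point.

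The 10 genes lie on 8 chromosomes of the R64 assembly, and their coding regions run from 717 bp (*RPE1*) to 2046 bp (*TKL2*). *ZWF1* is at chrXIV:196426-197943, *SOL4* at chrVII:985972-986739, *GND2* at chrVII:1004624-1006102 and *TKL2* at chrII:474392-476437. *RKI1* is at chrXV:503552-504328 and *TKL1* at chrXVI:692796-694838. The counting window of *TKL2* shares 435 of its 2146 bases with that of *YBR116C* on the same strand, so reads there count for both features. The windows of *GND1* and *RPE1* overlap *YHR182C-A* and *YJL120W* only on the opposite strand.

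Upstream sequence is shown because the members with the same enzymatic role differed in their response to galactose. In the 500 bases before each start codon (R64, RefSeq), the stress response element AGGGG, searched on both strands and known as the element of the factors Msn2 and Msn4, occurred before 8 of the 10 genes, against 33.9% of 5591 such windows in the genome. It stood before all 4 genes that were higher in galactose and before 4 of the 6 that were lower. *ZWF1* had 5 matches and *GND2* had 2, and 8.14% of all windows held 2 or more. *GND1* and *RPE1* had none. The matches nearest the start codons of the 4 genes that were higher in galactose are printed with 10 bases on each side, in the direction of the gene, with the match in capitals (CCCCT is AGGGG on the opposite strand):
ZWF1, chrXIV:197997-198021, minus strand: ctcccccttcCCCCTctccaattgg
SOL4, chrVII:985836-985860, plus strand: aaaaaatcccCCCCTaagcagcgaa
GND2, chrVII:1004450-1004474, plus strand: gttatcttcaCCCCTattttcattt
TKL2, chrII:476500-476524, minus strand: attggcttgtCCCCTcttactgtag

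CGGNNTTA, the core that the zinc cluster factor Stb5 is known to bind before genes of NADPH metabolism, occurred before 7 of the 10 genes, against 13.1% of all windows. It was found before *ZWF1*, *SOL3*, *GND1*, *GND2*, *RKI1*, *TAL1* and *TKL1*, and not in the windows of *SOL4*, *RPE1* and *TKL2*. *GND1* and *TAL1* carried a pair each, and 1.16% of all windows held 2 or more. The matches of *GND1* and *TAL1*, the most abundant member of each branch in 2% glucose, and that of *ZWF1* are shown in the same way:
ZWF1, chrXIV:198309-198336, minus strand: catactccggCGGTCTTAcgcggagata
GND1 distal, chrVIII:470667-470694, plus strand: ttgtggctgtCGGTGTTAcattacggtg
GND1 proximal, chrVIII:470688-470715, plus strand: tacggtgcctCGGTGTTAcgcggtgctt
TAL1 distal, chrXII:837708-837735, minus strand: tgtgacgcagCGGCATTAgcgcggcgtt
TAL1 proximal, chrXII:837697-837724, minus strand: ggcattagcgCGGCGTTAtgagctaccc

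The Yap1 element TTACTAA was found only before *TKL2* (11.8% of all windows), the Mig1 core, GGGG preceded by CC, CT, GC or GT, before *SOL4*, *GND1* and *TKL2* (22.6%), and the Gcr1 core CTTCC before 6 genes (66.4%). In *ZWF1*, 1 Gcr1 match shared bases with 2 of the AGGGG matches, and no other pair of different motifs overlapped in the members. These matches describe letters in a window, and no binding was measured.

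Library depth ranged from 1845237 reads in features (*PPZ1* cells, 0.25% glucose) to 6784469 (control, 0.25% glucose), and levels are given as CPM, the deposited values per 1000000 of the largest library's total. *PPZ1* stood at 75.0 to 94.3 CPM in the control libraries and at 12538, 17798 and 2705 CPM in *PPZ1* cells in 2% glucose, 0.25% glucose and galactose, which fits the plasmid labels. For the strain markers, *MET17* had no reads, *LEU2* at most 1 read in any library, *HIS3*, of which BY4741 carries a partial deletion, stood at 22.9 to 68.0 CPM, and the a-cell gene *STE2* exceeded the alpha-cell gene *STE3* in every library. *PPZ1* cells in 0.25% glucose stood apart, since their differences from control fell with coding length (Spearman's correlation −0.69 across 5242 genes). Among the checks of the media, the transporter genes *HXT1* (328 to 16.4 CPM), *HXT2* (92.4 to 707 CPM) and *HXT3* (564 to 185 CPM) moved with glucose from 2% to 0.25% in control cells. In galactose against 2% glucose, the log2 changes of *HXT1*, *HXT2* and *HXT3* were −1.15, 3.66 and −0.03 in control cells. They were −1.28, 3.50 and 0.08 in *PPZ1* cells, so *HXT3* hardly moved in either strain. Of 6 galactose genes, 5 were at least 2-fold higher in galactose in both strains, at low levels. By the same rule 23.0% of all features were higher in control and 19.7% in *PPZ1* cells. Of the 5, *GAL2*, *GAL3*, *GAL7* and *GAL10* averaged under 10 CPM in 2% glucose and were compared only because of their galactose levels. *GAL7*, of the Leloir pathway, stood at 52.1 CPM in control and 50.6 CPM in *PPZ1* cells, after 2.28 and 3.23 CPM in 2% glucose. The galactose transporter gene *GAL2* went from 0.875 to 38.9 CPM in control cells, and *GAL80*, the repressor gene, was the one under 2-fold (67.9 to 76.4 CPM).

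**Figure D1:**
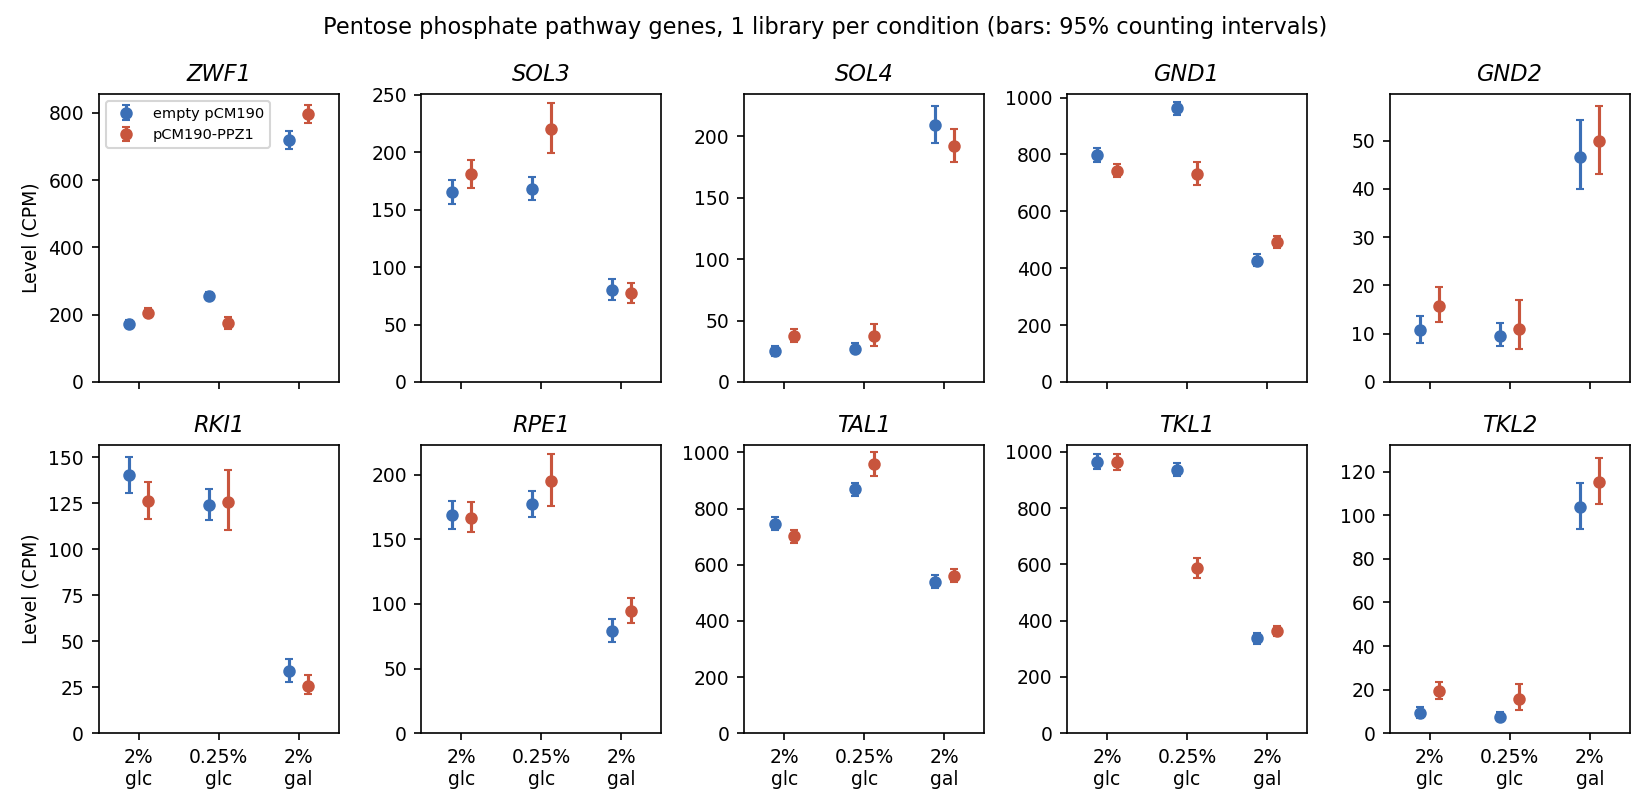
Level in CPM (linear axis from 0) of the 10 pathway genes in each of the 6 libraries, with control cells in blue and *PPZ1* cells in red, 1 library per point and exact Poisson 95% intervals of the reads as bars. *ZWF1*, *SOL4*, *GND2* and *TKL2* stand highest in the 2 galactose libraries, and the other 6 genes stand lowest there.

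The pathway was not read out evenly in glucose. Per kb of counted sequence, which allows genes to be compared, control cells in 2% glucose held 673 CPM per kb of *TAL1*, 508 of *GND1* and 450 of *TKL1*, then 206 of *RPE1*, 194 of *SOL3*, 160 of *RKI1*, 106 of *ZWF1* and 29.0 of *SOL4*, with *GND2* at 6.76 and *TKL2* at 4.24. Among neighbours in this order, only *RPE1* and *SOL3*, and *GND2* and *TKL2*, had overlapping counting intervals. *ZWF1*, the entry step, thus ranked 7th of the 10, and *TAL1* was the most abundant in all 6 libraries. In control cells in galactose the order became *TAL1* (486 CPM per kb), *ZWF1* (444), *GND1* (272) and *SOL4* (241), with *TKL1* lower (157) and *RKI1* (38.5) near *TKL2* (48.4) and *GND2* (29.6). In *PPZ1* cells in galactose the intervals of *TAL1* (505) and *ZWF1* (492) overlapped.

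Galactose against 2% glucose split the pathway. In control cells *ZWF1*, *SOL4*, *GND2* and *TKL2* were at least 2-fold higher and *SOL3*, *RKI1*, *RPE1* and *TKL1* at least 2-fold lower, which is 4 of 10 in each direction, where 23.0% of the 5397 features compared were higher and 19.8% lower by the same rule. In *PPZ1* cells 4 members were at least 2-fold higher (19.7% of features) and 3 were lower (21.0%), *RPE1* being the one that no longer passed. Both galactose libraries lay above all 4 glucose libraries for these 4 genes and below all 4 for the other 6, an order that 36.6% and 36.8% of 5382 features also showed. The median log2 change of the members was −0.69 in control and −0.46 in *PPZ1* cells, beside 0.05 and −0.08 for all features.

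These changes were fitted with both strains in 1 model, plasmid plus carbon source, in which the difference between strains in response serves as the error (edgeR quasi-likelihood test, 2 residual degrees of freedom, Benjamini-Hochberg adjustment over 5886 genes). By this test 4 members rose in galactose and 5 fell, beside 63.1% of genes passing, 31.6% rising and 31.5% falling. *TAL1* was the exception, with a log2 change of −0.42 and an adjusted p of 0.0847. A change in every cell and a change in a fraction of the cells cannot be told apart in such bulk RNA.

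In the oxidative branch, *ZWF1* was counted at 172 CPM in 2% glucose, 255 in 0.25% glucose and 718 in galactose in control cells, and at 206, 174 and 796 CPM in *PPZ1* cells. The galactose libraries stood apart from the glucose libraries, which ran from 172 to 255 CPM. Its log2 change in galactose was 2.05 ± 0.05 in control and 1.95 ± 0.05 in *PPZ1* cells (± the standard error from Poisson counting here and below), and 1.99 in the joint fit (edgeR adjusted p = 5.16e-05).

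The lactonase genes moved in opposite directions. *SOL3* was at 165, 168 and 80.2 CPM in 2% glucose, 0.25% glucose and galactose in control cells and at 181, 220 and 77.2 CPM in *PPZ1* cells. *SOL4* was at 25.2, 27.1 and 209 CPM in control and 37.5, 37.4 and 192 CPM in *PPZ1* cells, so that per length it passed *SOL3* in both galactose libraries and in no glucose library. Its log2 change in galactose was 3.01 ± 0.13 in control and 2.33 ± 0.12 in *PPZ1* cells, and the joint fit gave 2.69 for *SOL4* (edgeR adjusted p = 1.15e-05) and −1.15 for *SOL3* (adjusted p = 0.000901).

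*GND1*, which encodes the major 6-phosphogluconate dehydrogenase, was at 798, 962 and 427 CPM in control and 743, 732 and 491 CPM in *PPZ1* cells in the same order of media. Its decrease in galactose stayed under 2-fold, with log2 changes of −0.90 ± 0.04 and −0.60 ± 0.04, and passed the joint test (−0.76, edgeR adjusted p = 0.0087). Its minor paralog *GND2* was at 10.7, 9.58 and 46.7 CPM in control and 15.7, 11.1 and 49.8 CPM in *PPZ1* cells. Only 21 to 78 reads stood behind the glucose values of *GND2*, and 173 and 200 behind those in galactose. Its log2 change was 2.03 ± 0.20 in control and 1.60 ± 0.18 in *PPZ1* cells (joint fit 1.87, edgeR adjusted p = 7.77e-05).

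In the non-oxidative branch, *RKI1*, the isomerase that makes ribose 5-phosphate, had the deepest decrease of the members. It was counted at 140, 124 and 33.7 CPM in control and 126, 126 and 25.9 CPM in *PPZ1* cells, with the 4 glucose libraries close together. Its log2 change in galactose was −2.03 ± 0.14 in control, the 151st lowest of 5397, and −2.24 ± 0.15 in *PPZ1* cells, the 84th lowest (joint fit −2.19, edgeR adjusted p = 2.48e-05). *RPE1*, the epimerase on the parallel arm, was at 168, 177 and 79.1 CPM in control and 167, 195 and 94.2 CPM in *PPZ1* cells (joint fit −0.98, adjusted p = 0.00169).

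*TAL1* varied least of the 10, from 539 to 958 CPM over the 6 libraries, a 1.78-fold span. It was at 746, 868 and 539 CPM in control and 701, 958 and 560 CPM in *PPZ1* cells. *TKL1*, the major transketolase gene, was at 965, 937 and 337 CPM in control and 964, 586 and 364 CPM in *PPZ1* cells, and the value of *PPZ1* cells in 0.25% glucose was the one that left the level shared by the other glucose libraries. Its log2 change in galactose was −1.51 ± 0.05 and −1.40 ± 0.04 (joint fit −1.47, edgeR adjusted p = 0.00032).

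*TKL2*, the minor transketolase gene, had the widest span, 15.7-fold. It was at 9.10, 7.37 and 104 CPM in control cells, from 52, 50 and 385 reads, and at 19.2, 15.8 and 115 CPM in *PPZ1* cells, from 95, 30 and 463 reads. Both galactose values lay far above the glucose values. Its log2 change in galactose was 3.38 ± 0.19 in control, the 201st highest of 5397, and 2.53 ± 0.16 in *PPZ1* cells (joint fit 3.02, edgeR adjusted p = 1.49e-05). The overlapping *YBR116C* stood at 2.28 CPM in 2% glucose and 35.4 CPM in galactose in control cells, and how many of the *TKL2* reads came from the shared bases was not tested.

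**Figure D2:**
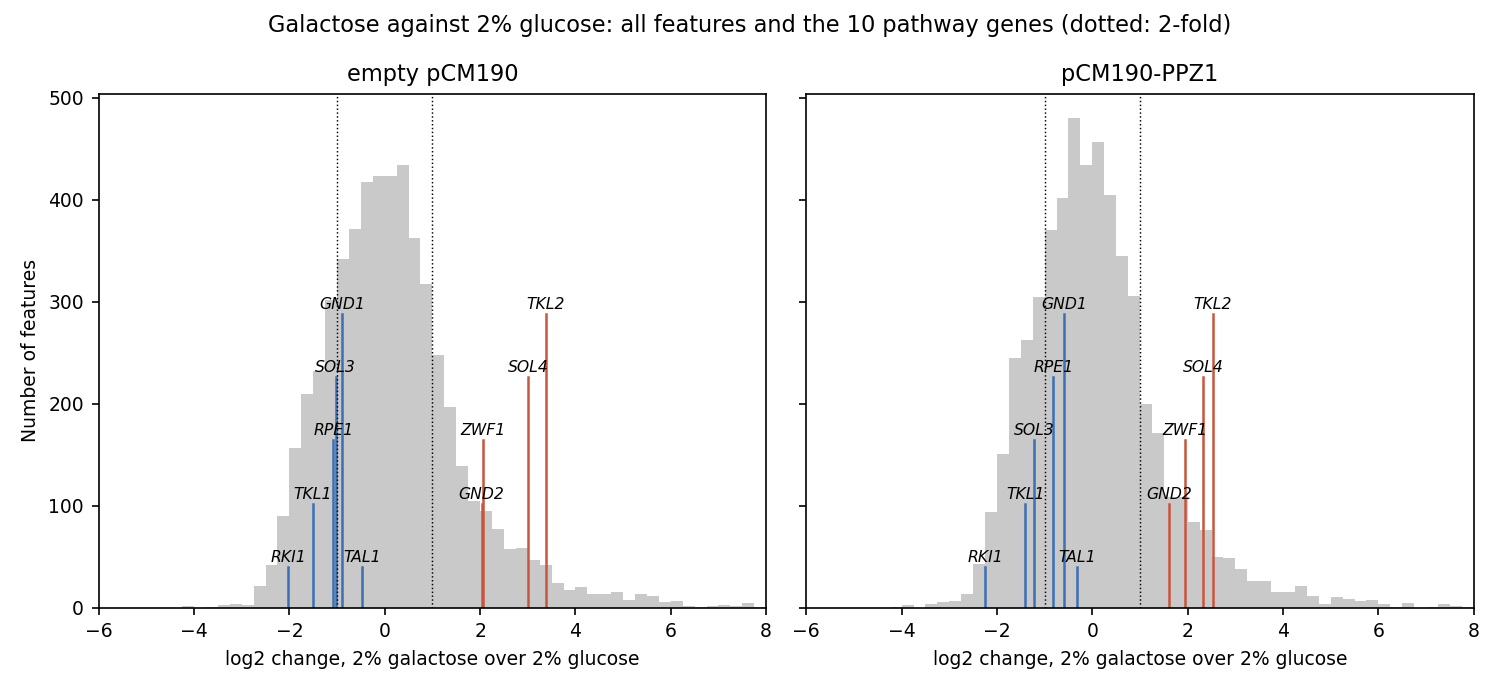
Number of features (vertical axis, grey bars of 0.25 log2 units) by log2 change of 2% galactose over 2% glucose in control cells (left) and *PPZ1* cells (right), with the 10 pathway genes as lines whose height only separates the names. The 4 genes in red lie past the upper 2-fold line in both strains, from 2.03 to 3.38 in control cells, and *RKI1* lies lowest at −2.03 and −2.24.

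The change between paralogs can be read within a library, where scaling between libraries plays no part. Of the reads per length of *SOL3* and *SOL4*, *SOL4* took 13.0% in control cells in 2% glucose (exact 95% interval 11.1 to 15.2), 13.6% in 0.25% glucose and 71.9% in galactose (69.1 to 74.6). In *PPZ1* cells it took 16.9%, 14.3% and 70.9%. *TKL2* took 0.933%, 0.78% and 23.5% of the transketolase reads in control cells, and 1.95%, 2.62% and 24.1% in *PPZ1* cells. *GND2* took 1.31%, 0.981% and 9.81% of its pair in control, and 2.06%, 1.48% and 9.16% in *PPZ1* cells.

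For all 3 pairs the minor gene took more of the reads in both galactose libraries than in any glucose library, and the intervals did not overlap. In galactose the intervals of the strains overlapped for each pair. In 2% glucose the interval of *TKL2* in *PPZ1* cells (1.58% to 2.37%) lay above that in control cells (0.698% to 1.22%), and so it did in 0.25% glucose (1.78% to 3.72% against 0.579% to 1.03%). These intervals cover counting error only. *GND1* and *GND2* are 79.1% identical in coding bases with a longest identical run of 20 bases, *TKL1* and *TKL2* 69.1% with a run of 17, and *SOL3* and *SOL4* 58.2% with a run of 8, so that a read longer than the run of its pair matches only 1 of the genes without a mismatch. How the aligner placed reads that match both is not stated in the sources.

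**Figure D3:**
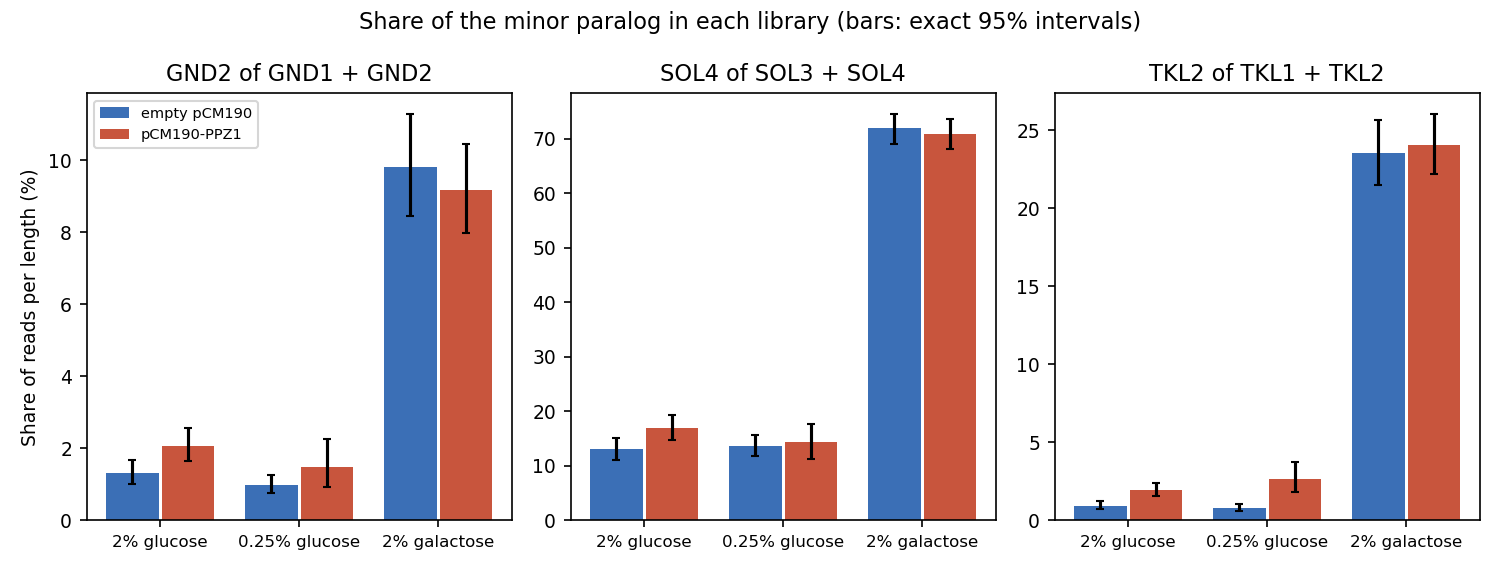
Share (%) of the reads per length of a paralog pair that belonged to the minor gene, by medium, for control cells (blue) and *PPZ1* cells (red), with exact 95% intervals and a separate axis from 0 for each pair. *SOL4* goes from 13.0% to 71.9%, *TKL2* from 0.933% to 23.5% and *GND2* from 1.31% to 9.81% between 2% glucose and galactose in control cells.

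Summed per kb, the 5 oxidative genes made up 36.1% of the pathway in control cells in 2% glucose and 38.9% in 0.25% glucose, and 37.6% and 36.6% in *PPZ1* cells. In galactose this share was 56.7% in control and 56.8% in *PPZ1* cells. The oxidative sum went from 845 to 1081 CPM per kb between 2% glucose and galactose in control cells, while the non-oxidative sum went from 1494 to 827. All 10 genes together held 0.324% of the reads in control cells in 2% glucose, 0.354% in 0.25% glucose and 0.26% in galactose, and 0.318%, 0.314% and 0.282% in *PPZ1* cells.

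Low glucose moved the members far less. No member was 2-fold changed in 0.25% against 2% glucose in control cells, where 0.936% of 5233 features were higher and 0.153% lower, nor in *PPZ1* cells, where 1.62% were higher and 5.04% lower. In the joint fit no member passed an adjusted p of 0.05 for low glucose (edgeR, 0.408% of genes in either direction), none had an unadjusted p under 0.05, and DESeq2 also called none. The lowest p among them was that of *TKL1* (log2 −0.40, unadjusted p = 0.096, adjusted p = 0.798). In control cells the largest value was that of *ZWF1*, 0.57 ± 0.06, followed by *GND1* at 0.27 ± 0.03 and *TAL1* at 0.22 ± 0.03, beside a median of 0.13 for all features. *RKI1* (−0.17 ± 0.07) and *TKL2* (−0.27 ± 0.25) were the lowest along with *GND2* (−0.14 ± 0.23).

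In *PPZ1* cells the same step gave −0.24 ± 0.09 for *ZWF1*, −0.72 ± 0.05 for *TKL1*, −0.02 ± 0.05 for *GND1* and 0.45 ± 0.04 for *TAL1*, beside a median of −0.09 for all features. The differences between strains in this response, *PPZ1* minus control, were −0.80 for *ZWF1* (95% counting interval −1.02 to −0.59) and −0.67 for *TKL1* (−0.78 to −0.57), while *GND1* (−0.29) was lower and *SOL3* (0.26) and *TAL1* (0.23) were higher. The intervals of the other 5 members held 0. The members' median difference was −0.05 and that of all features −0.25. With the trend on coding length subtracted, the differences were −0.43 for *ZWF1* (−0.64 to −0.22), −0.20 for *TKL1* (−0.31 to −0.09) and 0.28 for *TAL1* (0.18 to 0.38), while *GND1* turned to 0.04 (−0.06 to 0.15) and *SOL3* was at 0.16 (−0.05 to 0.36), and the intervals of 7 members held 0. With TMM scaling *GND1* was at −0.09 (−0.19 to 0.02), and *RKI1* (0.37) and *RPE1* (0.36) lay above 0. On the trend-subtracted scale the low-glucose change of *ZWF1* was 0.40 in control and −0.03 in *PPZ1* cells, and that of *TKL1* was −0.21 and −0.41. No test of these differences is possible with 1 library per condition.

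Between strains in the same medium, 0 members were 2-fold changed in 2% glucose, where 0.0961% of 5205 features were higher and 0.0576% lower. *TKL2* lay at the threshold, 1.996-fold higher in *PPZ1* cells (log2 1.00 ± 0.23, from 52 and 95 reads), the 6th highest of all features compared. At 9.10 CPM in control cells, *TKL2* passed the minimum mean of 10 CPM only through its level in *PPZ1* cells (19.2 CPM). *SOL4* (0.56 ± 0.15) was 37th and *GND2* (0.52 ± 0.23) 46th, and *ZWF1* stood at 0.26 ± 0.06. The other 6 members lay between −0.15 and 0.13. Of the gene lists described below, the 11 general stress genes compared had a median of 0.36, with none past 2-fold, beside −0.03 for all features. The 13 neighbouring sugar phosphate genes had a median of 0.10, with *NQM1* at 0.98 ± 0.17. The 10 peroxide defence genes compared also had 0.10, with only *TSA2* past 2-fold (1.06 ± 0.19). The other NADPH sources and the transcription factors had medians of −0.06. This comparison shares its 2 libraries with those of galactose against 2% glucose, so the values are not independent of them.

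In 0.25% glucose *TKL2* was 2.01-fold higher in *PPZ1* cells (log2 1.01 ± 0.31, from 50 and 30 reads). It was the only member past 2-fold, where 0.782% of 5242 features were higher and 9.96% lower. At 7.37 CPM in control cells, *TKL2* again passed the minimum mean of 10 CPM only through its level in *PPZ1* cells (15.8 CPM). *SOL4* (0.45 ± 0.20) and *SOL3* (0.39 ± 0.08) were higher, and *TKL1* (−0.68 ± 0.05), *ZWF1* (−0.55 ± 0.09) and *GND1* (−0.39 ± 0.04) were lower, beside a median of −0.24 for all features that other scalings brought to between −0.01 and 0.06. The 3 lower genes have coding regions of 1470 bp or more, and the 10% of genes with the longest coding regions had a median of −0.86 against 0.33 for the shortest 10%. With the running median by coding length subtracted, *TKL1* was at −0.12 ± 0.05, *ZWF1* at −0.16 ± 0.09 and *GND1* at −0.04 ± 0.04, *SOL3* was at 0.24 ± 0.08 and *SOL4* at 0.31 ± 0.20, while *TKL2*, close in length to *TKL1*, was at 1.56 ± 0.31. The part that the trend plays in each gene was not tested.

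**Figure D4:**
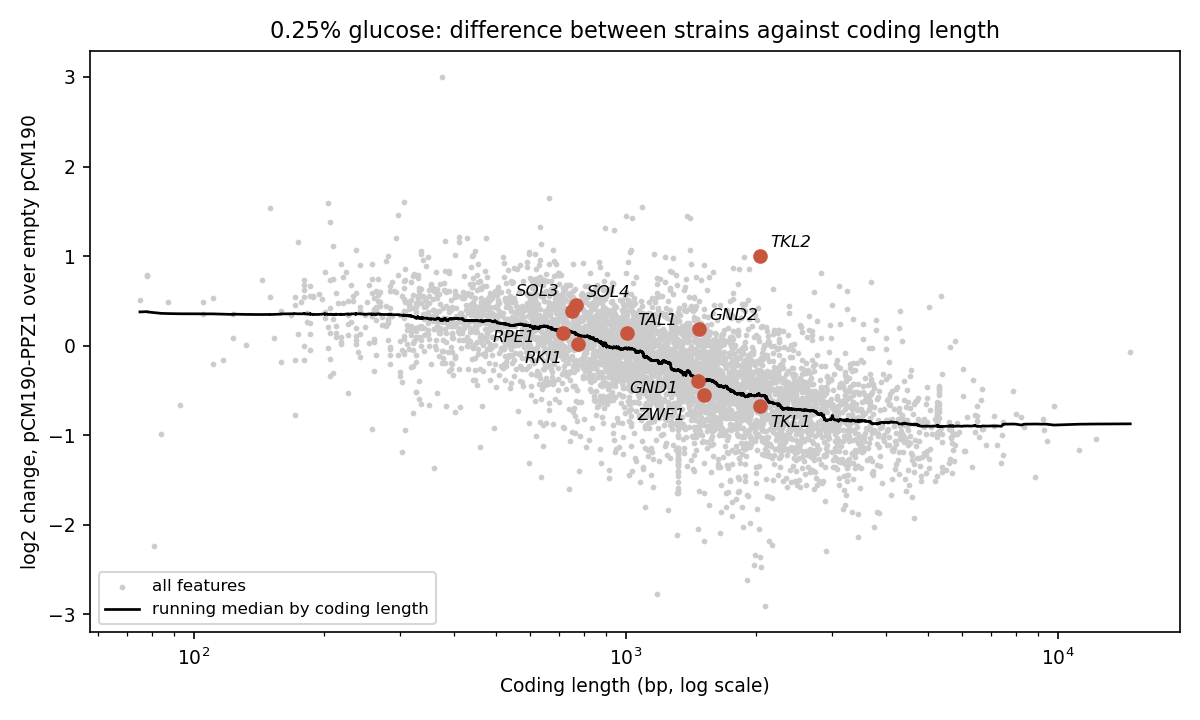
Log2 change of *PPZ1* cells over control in 0.25% glucose against coding length (bp, log axis) for all features compared (grey), with a running median along coding length (black) and the 10 pathway genes in red. *TKL2* (1.01) lies above the median line for its length, and *TKL1* (−0.68), *ZWF1* (−0.55) and *GND1* (−0.39) lie near it.

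In galactose no member was 2-fold changed between strains, where 0% of 5343 features were higher and 0.0561% lower. *RPE1* stood at 0.25 ± 0.11, *GND1* at 0.20 ± 0.05, *ZWF1* and *TKL2* at 0.15 each, and *RKI1* at −0.37 ± 0.19 beside a median of −0.13. Over the 3 media, the plasmid term of the joint fit passed an adjusted p of 0.05 for 0 members and for 0% of 5885 genes (edgeR; 246 genes and 1 member had an unadjusted p under 0.05, and DESeq2 called 2 genes and no member). That member was *TKL2*, with a log2 difference of 0.77 (unadjusted p = 0.00717, adjusted p = 0.748). Without the *PPZ1* library in 0.25% glucose, 1 residual degree of freedom is left and 1 member passed for plasmid (*TKL2*) and all 10 for galactose, beside 96 and 4822 genes. Low glucose is then 1 control library, assumed to vary like the others, and its 3 calls among members (368 over all genes) show no more than that library.

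The rise in galactose was smaller in *PPZ1* cells for *TKL2* (difference of log2 changes −0.85, 95% counting interval −1.34 to −0.36) and for *SOL4* (−0.68, −1.02 to −0.34). For *ZWF1* (−0.11, −0.25 to 0.04) and *GND2* (−0.43, −0.96 to 0.10) the interval held 0. The differences of *GND1* (0.30), *RPE1* (0.26) and *TAL1* (0.15) were above 0, and the intervals of *SOL3*, *RKI1* and *TKL1* held 0. For *TKL1* this depended on the scaling. Its difference was 0.23 with TMM scaling (0.11 to 0.35) and 0.32 with the length trend subtracted (0.20 to 0.44). In both settings the intervals of 4 members held 0. The members' median difference was −0.15 and that of all features −0.11. For *TKL2* and *SOL4* the galactose levels of the strains were close, 104 and 115 CPM and 209 and 192 CPM, and the 2% glucose levels were the ones that stood further apart in proportion.

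**Figure D5:**
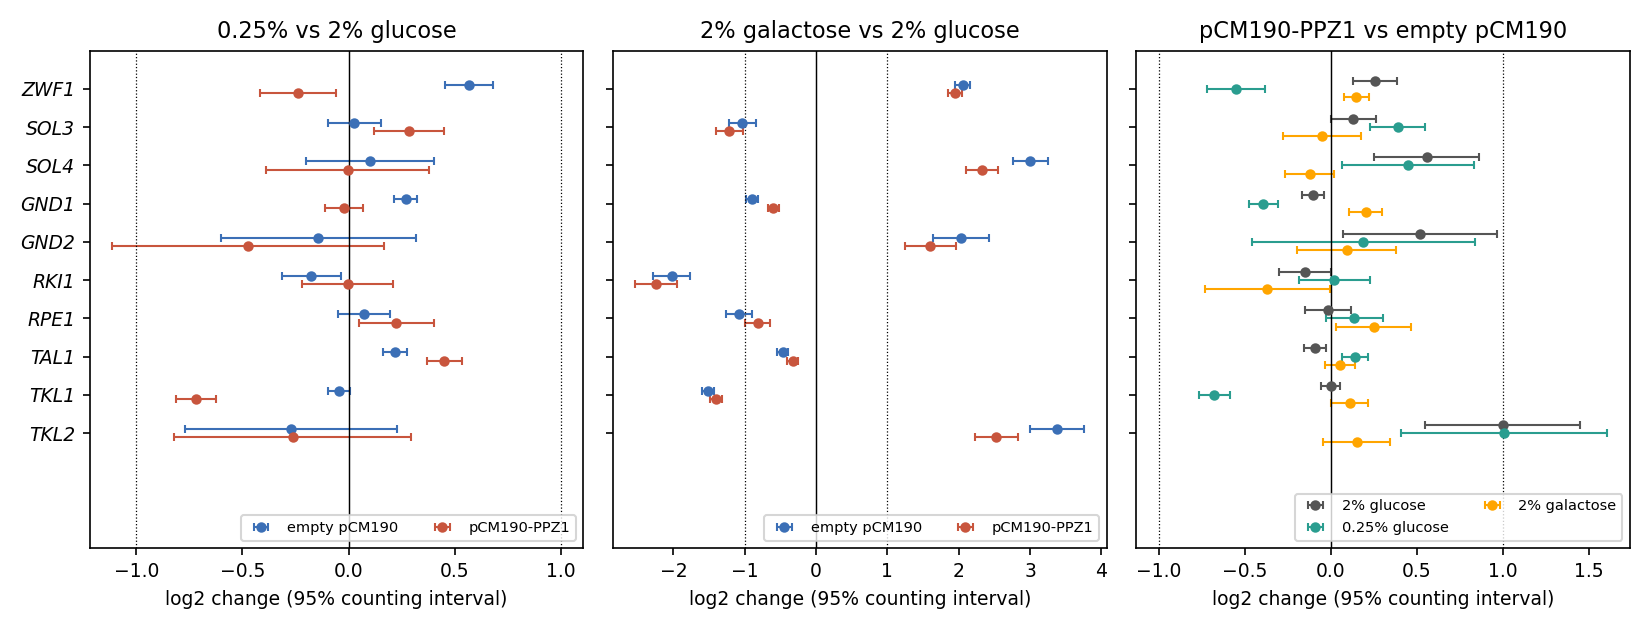
Log2 changes of the 10 pathway genes with 95% counting intervals for low glucose (left) and galactose (middle) against 2% glucose, in control (blue) and *PPZ1* cells (red), and for *PPZ1* cells over control in each medium (right), with dotted lines at 2-fold. *ZWF1* shows opposite signs in low glucose, 0.57 in control and −0.24 in *PPZ1* cells, and *TKL2* lies at the 2-fold line between strains in both glucose media.

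Genes next to the pathway also changed in galactose. Of 13 genes of neighbouring sugar phosphate steps, 6 were at least 2-fold higher and 5 lower in control cells, with a median of 0.11, and 4 and 4 in *PPZ1* cells, beside 23.0% and 19.8% of all features in control cells and 19.7% and 21.0% in *PPZ1* cells. *NQM1*, the paralog of *TAL1* (68.2% identical coding bases), went from 18.7 to 495 CPM in control cells and from 37.9 to 450 in *PPZ1* cells, where *TAL1* itself went from 746 to 539 and from 701 to 560. *XKS1*, which encodes xylulokinase, went from 41.1 to 358 CPM in control cells, and the aldose reductase gene *GRE3* from 118 to 269. *PRS1*, which encodes a subunit of the synthetase that makes phosphoribosyl pyrophosphate from ribose 5-phosphate, went from 409 to 124 CPM in control cells. *PRS3*, *PRS4* and *PRS5* were also at least 2-fold lower there, while *PRS2* was not (54.8 to 59.1 CPM, log2 0.11). In *PPZ1* cells *PRS4* (−0.91) stayed under 2-fold and *PRS2* was at 0.08. *NQM1* was also the only gene of this list past 2-fold between strains, in 0.25% glucose (16.2 CPM in control and 45.8 in *PPZ1* cells, log2 1.44, and 1.48 with the length trend subtracted).

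Of 8 genes for other sources of NADPH and NAD kinases, 4 were higher and 1 lower in control cells in galactose, with a median of 1.41, where 23.0% and 19.8% of all features passed. Of the 4, *IDP3* and *YEF1* averaged under 10 CPM in 2% glucose and were compared only because of their galactose levels. In *PPZ1* cells 5 were higher, *IDP3* and *YEF1* again among them, and 1 lower, with a median of 1.47. There 19.7% and 21.0% of all features passed. *IDP2*, the cytosolic NADP-dependent isocitrate dehydrogenase, went from 11.4 to 492 CPM in control and from 9.89 to 412 in *PPZ1* cells. *ALD6*, the cytosolic acetaldehyde dehydrogenase, went from 542 to 2001 and from 649 to 1945 CPM, and *IDP3*, the peroxisomal isocitrate dehydrogenase, from 8.58 to 105 and from 9.28 to 81.0 CPM. *IDP1*, the mitochondrial one, went from 168 to 246 CPM in control cells and was not 2-fold changed. In low glucose no gene of this list was past 2-fold in control cells, and only *MAE1*, the malic enzyme, was at least 2-fold lower in *PPZ1* cells. It fell in both strains, with log2 changes of −0.90 ± 0.06 in control and −1.29 ± 0.12 in *PPZ1* cells. With the length trend subtracted these were −1.06 in control, past 2-fold, and −0.97 in *PPZ1* cells, under 2-fold.

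Of 11 genes for NADPH-using peroxide defence, 3 were higher and 1 lower in control cells in galactose, with a median of 0.40, shares close to or below the 23.0% and 19.8% of all features, and *PPZ1* cells gave the same counts. Of the 3, *GPX1* averaged under 10 CPM in 2% glucose and was compared only because of its galactose levels. *GPX1*, a glutathione peroxidase, went from 7.53 to 150 CPM and *TSA2*, a minor peroxiredoxin, from 13.7 to 144 CPM in control cells, while the abundant peroxiredoxin genes *TSA1* (1322 to 1112 CPM) and *AHP1* (1969 to 2303 CPM) were not 2-fold changed. Of 7 genes of transcription factors known for pathway genes, *MSN4* was higher (63.9 to 155 CPM) and *SKN7* lower (76.2 to 26.7 CPM) in control cells in galactose, while *YAP1* (121 to 199 CPM) and *GCR2* (85.1 to 81.5 CPM) stayed under 2-fold. In 0.25% glucose, 3 of these genes were at least 2-fold lower in *PPZ1* cells than in control, beside 9.96% of features. They were *SKN7* (−2.02 ± 0.23), *MSN2* (−1.49 ± 0.18) and *MSN4* (−1.45 ± 0.19). With the length trend subtracted these were −1.49, −0.91 and −0.89, and only *SKN7* stayed past 2-fold. All 12 general stress genes (*GAC1* compared only because of its galactose levels) were higher in galactose in both strains, with medians of 4.09 and 3.69, among them *HSP12* (578 to 10005 CPM), *HSP26* (44.3 to 1831 CPM) and *SSA4* (56.5 to 1879 CPM) in control cells. Their part in the pathway genes' values was not tested.

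By the root mean square difference of centred log2 levels over the 6 libraries, out of 5381 other features, the profile of *ZWF1* was closest to those of *INO1* (0.06, inositol 3-phosphate synthase), *ECM38* (0.08) and *YFL042C* (0.09). *SOL4* was closest to *UBI4* (0.13, polyubiquitin), *FRT2* (0.14) and *SHC1* (0.15), and *GND2* to *YNL134C* (0.11), *URA8* (0.16, a CTP synthase) and *YBR090C* (0.16). *TKL2* was closest to the overlapping *YBR116C* (0.17), then to *GRE1* (0.19, a stress-induced hydrophilin) and *MOH1* (0.24), and *SOL4* was its 5th nearest feature (0.33). *SHC1*, *YBR116C*, *GRE1* and *MOH1* averaged under 10 CPM over the glucose libraries and were compared only because of their galactose levels. For such genes the minimum itself selects profiles that are high in galactose. *GND2* ranked 264th for *ZWF1* and *SOL3* ranked 4486th for *SOL4*. These ranks describe likeness over 6 libraries, which share 2 parent cultures.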

How the data were processed

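Reads of 6 mRNA-Seq libraries (TruSeq LT, RiboPure-Yeast RNA) were aligned by the authors with Bowtie2 (version not given) and counted in SeqMonk 0.32.1 over each coding sequence with 50 bp on either side, without duplicate reads and on the strand opposite to the feature. The genome build and read length are not given in the sources used here, and the coordinates of all 10 genes were those of R64. For control cells in 0.25% glucose the deposited values are the authors' read counts, and those of the remaining 5 libraries are a signal the authors deposited, namely counts multiplied by 1 factor per library (1.19 to 3.57), which divided out to whole reads within 0.01 for 100% of values. No column was unmapped, and 5 emptied lines were not analysed here.

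Samples were grouped by plasmid and carbon source from the labels. CPM keeps the authors' scaling, with the largest library's total as divisor, and 1 CPM was added before log2. Fold changes of low genes are thus understated. Features averaging 10 CPM or more in the libraries of a comparison were kept, at 2-fold, the study's threshold. Such features needed 19.0 to 67.8 reads, depending on depth. Errors come from Poisson counting, shares carry Clopper-Pearson 95% intervals, and both cover counting error only. The additive model of plasmid and carbon source was fitted to recovered reads with edgeR 4.0.16 (TMM, quasi-likelihood) and, as an alternative, DESeq2 1.42.0, on R 4.3.3. Its error is the difference between strains in response, so its p-values do not measure variation between cultures. Other scalings, pseudocounts, minimums, thresholds, removal of the coding length trend and a fit without the shallowest library were tried. Scripts were tested on simulated data with known changes.

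The text names all 10 genes and, from each list, the 2 of highest mean CPM per kb and the 2 of largest change in galactose in control cells, with the 3 nearest profiles of *ZWF1*, *SOL4*, *GND2* and *TKL2*. Named besides are *PRS3*, *PRS4*, *PRS5*, *MAE1* and *MSN2*, which passed 2-fold, and *PRS2*, which did not. Other listed genes that passed 2-fold are counted but not all are named. *GAL3*, *GAL10*, *YEF1* and *GAC1* are named because only their galactose levels brought them past the minimum of 10 CPM. Members, lists and motifs were chosen with earlier results of these data known. Upstream windows of 500 bases came from the RefSeq R64 sequence, and Biopython 1.88 aligned the paralogs.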

Additional observations from a re-analysis of the deposited data

Results flagged for a closer look

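*ZWF1* is listed because its response to low glucose had opposite signs in the strains. Its level went from 172 to 255 CPM in control cells (log2 0.57 ± 0.06) and from 206 to 174 CPM in *PPZ1* cells (−0.24 ± 0.09), a difference of −0.80. The difference was not tested, since each condition has 1 library. The value of *PPZ1* cells rests on the shallowest library, whose changes fell with coding length, and with that trend subtracted the changes were 0.40 and −0.03.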

How the results depend on the processing

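With both directions summed, the members past 2-fold in galactose changed by over 1.5 times at a 3-fold threshold in control cells, which left 5 in place of 8. By direction, the lower members went from 4 to 1 in control and from 3 to 1 in *PPZ1* cells at 3-fold, and from 3 to 5 in *PPZ1* cells at 1.5-fold. For *PPZ1* against control in 2% glucose, *TKL2* made the count 1 in place of 0 under median-of-ratios, TMM and upper-quartile scaling, without a pseudocount, at 1.5-fold and with the length trend removed. In 0.25% glucose the count of 1 became 0 with a pseudocount of 5 CPM, with a minimum of 50 CPM and at 3-fold, and 2 at 1.5-fold. At 1.5-fold, 1 member was changed by low glucose in *PPZ1* cells. The members' median difference of response to low glucose went from −0.05 to 0.18 with upper-quartile scaling. Without the *PPZ1* library in 0.25% glucose the additive model called 1 member for plasmid and 3 for low glucose (then 1 library), in place of 0 and 0, with 1 residual degree of freedom. In the additive model, signs turned for *RKI1* (plasmid, 0.0031 with DESeq2 size factors), *TKL1* (plasmid, 0.13 without that library), *SOL3* (low glucose, −0.12 without it) and *SOL4* (low glucose, 0.019 with DESeq2 and 0.014 with its size factors), all within 0.13 of 0 before, and the cause was not tested. Among uncalled low-glucose values, another scaling or the length trend also turned signs, among them the difference of *GND1* between strains (−0.29 to 0.04 with the length trend removed). From plain CPM in place of CPM per kb the oxidative share was 40.2% (control) and 38.5% (*PPZ1* cells) in 0.25% glucose and 58.1% in *PPZ1* cells in galactose.

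Over all features, *PPZ1* against control in 0.25% glucose gave 41 higher and 522 lower as deposited, 123 and 231 with median-of-ratios, 109 and 250 with TMM, 156 and 191 with upper-quartile scaling and 64 and 123 without the length trend. Galactose in control cells gave 990 higher and 1415 lower with upper-quartile scaling, in place of 1241 and 1067. Depth limits *GND2* and *TKL2* most, with 21 and 30 reads in *PPZ1* cells in 0.25% glucose. Each condition has 1 library and the labels carry no replicate numbers. The 3 libraries of a strain share a parent culture, so the additive model, with plasmid as a term, compares media within each culture. Its plasmid term cannot tell the plasmid from the culture.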
